A study of Homo sapiens with 2 samples.

Results

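The genes described here encode 9 enzymes or subunits of the citrate cycle and its isozymes: CS, ACO1, IDH1, IDH2, IDH3A, OGDH, SUCLG1, FH and MDH2. They were chosen by gene symbol among the 20802 amplicons of an amplicon sequencing table, and each had 1 row. The choice was made with earlier results of these data known, so the counts below describe the genes and test nothing. The table compares 2 human prostate cancer cell lines. MDA Pca 2b is an established line from a bone metastasis and LNCaP one from a lymph node metastasis. The labels give both as WT prostate carcinoma cells with no treatment beyond the preparation of total RNA, and both have the same batch label. Passage and culture conditions are not given in the labels. The series' title asks how oncogenes and tumour suppressor genes differ between such lines.

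Each line had 1 library, made from 10 ng of total RNA by amplifying 1 short amplicon per gene, and there is no replicate check for any value below. The libraries held 8558660 counts for MDA Pca 2b and 10778061 for LNCaP, and 13577 and 13726 genes reached 10 counts. Levels are CPM, counts set relative to the TMM-scaled library total, in which a single count is worth 0.117 CPM in MDA Pca 2b and 0.0923 CPM in LNCaP. Except where a spread between cultures is assumed, all 95% intervals are exact and cover counting error only. They compare these libraries rather than all cultures of the lines. Small nucleolar RNAs, the rows whose symbol starts with SNOR, took 5.78% of the MDA Pca 2b counts (95% Clopper-Pearson interval 5.77 to 5.80) and 1.26% of the LNCaP counts (1.26 to 1.27), so a scaling without them is given where it ends a call. All 9 luminal prostate markers looked up were read in both libraries, with a summed level of 4409 CPM in MDA Pca 2b, against 3642 CPM in LNCaP. KLK3, which encodes prostate-specific antigen, had 15559 counts in MDA Pca 2b and 5952 in LNCaP, and FOLH1, the prostate-specific membrane antigen, 4368 and 10421. Of the summed level, KLK3 and KLK2 held 1828 and 725 CPM in MDA Pca 2b, against 549 and 153 CPM in LNCaP. In the same list, 4 of the 9 markers had a lower level in MDA Pca 2b. Summed fibroblast markers came to 3.88 and 14.1 CPM in MDA Pca 2b and LNCaP, leukocyte markers to 32.9 and 11.9 CPM and endothelial markers to 4.35 and 3.51 CPM. Of these lists 2 of 7, 2 of 7 and 2 of 4 markers were measured, and 3, 4 and 2 were at 0 in MDA Pca 2b, against 2, 4 and 2 in LNCaP. COL1A1 of fibroblasts had 24 counts in MDA Pca 2b and 132 in LNCaP, and CD14 of leukocytes 149 and 68. CSF1R, the other measured leukocyte marker, had 130 counts in MDA Pca 2b and 58 in LNCaP. Both leukocyte markers were higher in MDA Pca 2b, CD14 by 2.79-fold (2.08 to 3.77) and CSF1R by 2.85-fold (2.08 to 3.96). Of the endothelial markers, PECAM1 had 36 counts in MDA Pca 2b and 18 in LNCaP, and VWF 1 and 20. PTPRC and CDH5 were at 0 in both libraries and are named because of that value. The part of these markers in the results was not tested.

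The citrate cycle runs in the mitochondrial matrix, where it oxidises acetyl groups to carbon dioxide and hands the electrons to the respiratory chain. Citrate synthase opens the cycle, and aconitase, isocitrate dehydrogenase, oxoglutarate dehydrogenase, succinyl-CoA ligase, succinate dehydrogenase, fumarase and malate dehydrogenase follow in turn. Healthy luminal prostate epithelium is known for accumulating zinc and secreting citrate. Prostate cancer cells usually lose that zinc and oxidise the citrate. ACO1 and IDH1 are cytosolic isozymes of cycle steps, and IDH1 and IDH2 make NADPH rather than NADH.

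Of the 9 genes, 5 were lower in MDA Pca 2b by 2-fold or more and 0 were higher by that much. The call required the whole interval of the ratio to lie past 2-fold. IDH2, the mitochondrial NADP-dependent isocitrate dehydrogenase, was 4.72-fold lower. ACO1, OGDH, SUCLG1 and FH were between 2.46-fold and 3.09-fold lower, whereas IDH1 and IDH3A differed by less than 1.3-fold. Among all 14418 genes with at least 10 counts in 1 library, 13.2% were called lower in MDA Pca 2b and 10.9% higher. Among the 6693 genes whose mean CPM lay within the range of the 9, the shares were 13.9% lower and 10.6% higher. The median log2 ratio of MDA Pca 2b over LNCaP was −1.30 over the 9 genes and −0.002 over all measured genes.

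**Figure D1:**
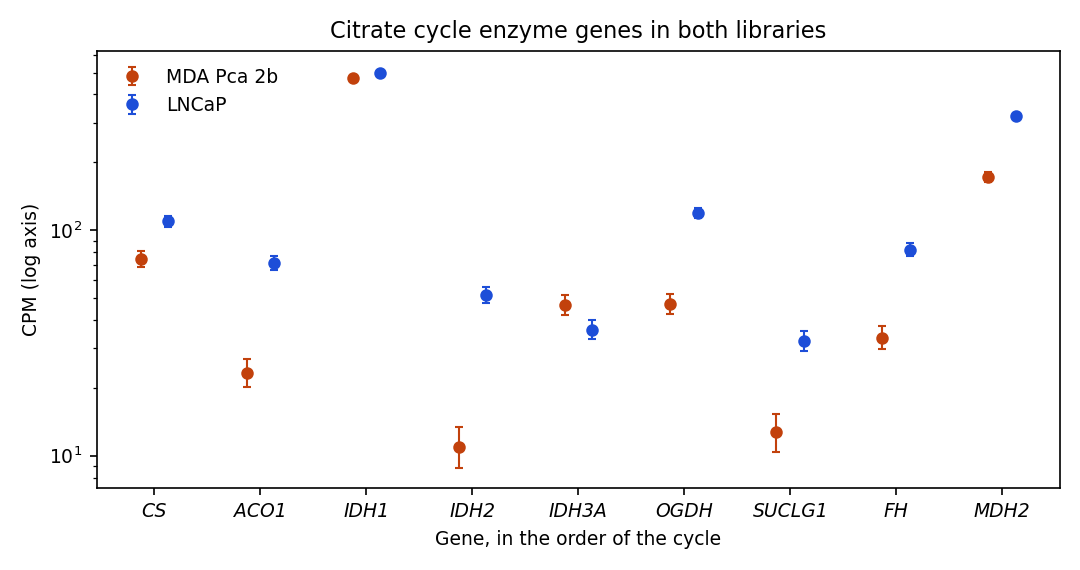
Level of each citrate cycle gene in CPM (log axis) in the MDA Pca 2b library (orange, left of each pair) and the LNCaP library (blue), with exact Poisson 95% intervals as bars. The widest gap is at IDH2, at 10.9 CPM in MDA Pca 2b and 51.6 CPM in LNCaP, and IDH3A is the 1 gene whose MDA Pca 2b point lies above the LNCaP point.

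At the entry of the cycle, CS, which joins acetyl-CoA to oxaloacetate, had 634 counts in MDA Pca 2b and 1189 in LNCaP, or 74.5 CPM (Poisson 95% interval 68.8 to 80.5) and 109.7 CPM (103.6 to 116). Its level in MDA Pca 2b was 1.47-fold below that in LNCaP (1.34 to 1.62), which did not pass 2-fold. ACO1, the cytosolic aconitase, loses its iron-sulphur cluster when iron is short and then binds iron-responsive elements of mRNAs as iron regulatory protein 1. It had 198 counts in MDA Pca 2b and 778 in LNCaP, or 23.3 CPM (20.1 to 26.7) and 71.8 CPM (66.8 to 77.0). That is 3.09-fold lower in MDA Pca 2b (2.64 to 3.62).

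The 3 isocitrate dehydrogenase genes had unlike ratios, and 1 of them, IDH2, was called. IDH1, the cytosolic and peroxisomal enzyme, had 4048 counts in MDA Pca 2b and 5386 in LNCaP, or 475.6 CPM (461.1 to 490.5) and 496.9 CPM (483.7 to 510.4). The libraries thus nearly coincided for this gene, at 1.04-fold below LNCaP (1.003 to 1.09), and under upper quartile scaling the ratio was 1.02 in the other direction. IDH2 had 93 counts in MDA Pca 2b and 559 in LNCaP, or 10.9 CPM (8.82 to 13.4) and 51.6 CPM (47.4 to 56.0), a 4.72-fold lower level in MDA Pca 2b (3.78 to 5.94). IDH3A, the catalytic alpha subunit of the NAD-dependent enzyme that serves the cycle proper, had 396 counts in MDA Pca 2b and 393 in LNCaP, or 46.5 CPM (42.1 to 51.3) and 36.3 CPM (32.8 to 40.03). Its ratio of 1.28 (1.11 to 1.48) lay above 1, alone among the 9 genes, and did not pass 2-fold. Exons of IDH3A overlap exons of ACSBG1 and CIB2 on the other strand in GENCODE release 29, and the strand setting of the counting is not given in the sources used here. Those genes had 0 and 0 counts in MDA Pca 2b, against 0 and 6 in LNCaP. Exons of CS overlap AC073896.1 and AC073896.2, and those of IDH1 overlap IDH1-AS1, none of which was found by symbol in the table.

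In the second part of the cycle, OGDH, the first component of the oxoglutarate dehydrogenase complex, had 401 counts in MDA Pca 2b and 1293 in LNCaP, or 47.1 CPM (42.6 to 52.0) and 119.3 CPM (112.9 to 126). It was 2.53-fold lower in MDA Pca 2b (2.26 to 2.84). SUCLG1, the alpha subunit shared by both succinyl-CoA ligases, had 108 counts in MDA Pca 2b and 350 in LNCaP, or 12.7 CPM (10.4 to 15.3) and 32.3 CPM (28.997 to 35.9). It was 2.54-fold lower in MDA Pca 2b (2.05 to 3.19), close to the threshold, and the call was lost under upper quartile scaling and under scaling without small nucleolar RNAs. FH, the fumarase whose loss is known from hereditary leiomyomatosis and renal cell cancer, had 284 counts in MDA Pca 2b and 890 in LNCaP, or 33.4 CPM (29.6 to 37.5) and 82.1 CPM (76.8 to 87.7). It was 2.46-fold lower in MDA Pca 2b (2.15 to 2.82). MDH2, the mitochondrial malate dehydrogenase that closes the cycle, had 1467 counts in MDA Pca 2b and 3474 in LNCaP, or 172.4 CPM (163.7 to 181.4) and 320.5 CPM (310.0 to 331.4). Its 1.86-fold difference (1.75 to 1.98) lay wholly under 2-fold. A bulk library cannot tell less RNA in each cell from fewer cells that make it.

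The calls rest on counting error alone. With an assumed spread between cultures of 20%, IDH2 was the 1 gene of the 9 still called, 4.72-fold lower with an interval of 2.60 to 8.60, and with 40% there were 0 calls. Over all measured genes, 6.69% were called lower and 6.28% higher at 20%, and 3.41% lower and 3.72% higher at 40%, so 1 and 0 of 9 are near the shares of all genes. At 20% the intervals of ACO1, OGDH, SUCLG1, FH and MDH2 still lay wholly below LNCaP, the nearest ends being 1.73-fold, 1.44-fold, 1.40-fold, 1.39-fold and 1.06-fold, whereas those of CS, IDH1 and IDH3A included no difference. The intervals of OGDH, SUCLG1, FH and MDH2 also included it at 40%, those of ACO1 and IDH2 did not.

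Summed over the 9 genes, MDA Pca 2b had 896 CPM and LNCaP 1320.5 CPM, a 1.47-fold gap (1.43 to 1.51). IDH1 weighed heavily in that sum, with 53.1% of the 9 genes' counts in MDA Pca 2b (Clopper-Pearson 95% interval 51.9 to 54.2) and 37.6% in LNCaP (36.8 to 38.4). Without IDH1 the sums were 421 CPM in MDA Pca 2b and 824 CPM in LNCaP, a 1.957-fold gap (1.88 to 2.04). CS held the same share in both, 8.31% of the 9 genes' counts in MDA Pca 2b (7.70 to 8.95) and 8.31% in LNCaP (7.86 to 8.77), and IDH2 held 1.22% (0.985 to 1.49) in MDA Pca 2b and 3.91% (3.59 to 4.24) in LNCaP. Levels of different genes come from different amplicons and are not ranked against each other.

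Ordered by their ratio of MDA Pca 2b over LNCaP, the genes ran IDH2, ACO1, SUCLG1, OGDH, FH, MDH2, CS, IDH1 and IDH3A from low to high. Dividing one gene's ratio by that of the next cancels the library scaling. In that comparison, IDH2 stood 1.53-fold below ACO1 (exact conditional 95% interval 1.16 to 2.03). Between ACO1, SUCLG1, OGDH and FH the neighbouring steps were 1.21-fold (0.919 to 1.59), 1.01-fold (0.784 to 1.29) and 1.03-fold (0.861 to 1.23), each with an interval that included no difference. Over longer steps, ACO1 stood 1.25-fold below FH (1.02 to 1.55) and 1.22-fold below OGDH (1.002 to 1.49), and SUCLG1 stood 1.03-fold below FH (0.797 to 1.35). FH stood 1.32-fold below MDH2 (1.14 to 1.54), MDH2 1.26-fold below CS (1.12 to 1.42), CS 1.41-fold below IDH1 (1.27 to 1.57) and IDH1 1.34-fold below IDH3A (1.16 to 1.55). The order was read from the same values, so these steps describe it and do not test it.

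**Figure D2:**
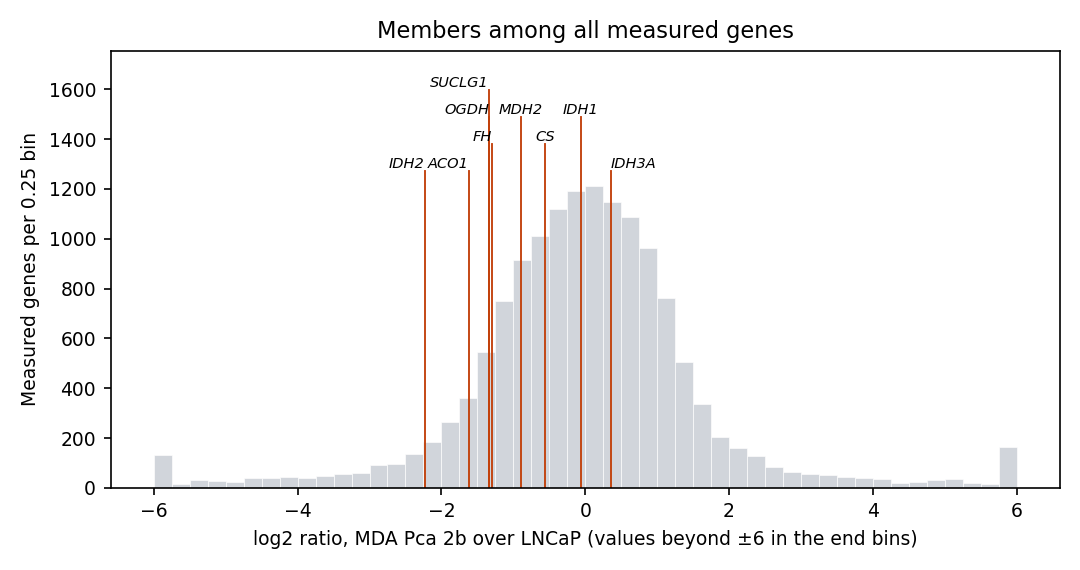
Number of measured genes (y axis) per 0.25 bin of log2 ratio of MDA Pca 2b over LNCaP (x axis, end bins holding values beyond ±6), with each citrate cycle gene as a vertical line whose height only places its name. IDH2 stands furthest to the left at −2.23, 4 genes lie between −1.62 and −1.30, and IDH3A stands to the right of 0 at 0.36.

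Against all measured genes, 6.14% had a lower ratio than IDH2, 10.4% a lower ratio than ACO1 and 14.0% to 14.7% a lower ratio than SUCLG1, OGDH and FH. MDH2, CS, IDH1 and IDH3A had 23.0%, 32.3%, 48.1% and 62.2% of genes below them. So 8 of the 9 had a log2 ratio below 0, as did 50.1% of all measured genes.

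Promoter windows are shown for the called genes ACO1, SUCLG1 and FH. That of IDH3A is shown beside them, whose ratio lay on the other side of 1 but was not called higher. Each window runs from 250 bases before to 50 after the RefSeq gene start (GRCh38.p14), 5′ to 3′ on the gene's strand. Capitals mark GGGCGG (the core of the GC box) or CCAAT (the CCAAT box), read on either strand, so that they also appear as CCGCCC and ATTGG. The windows are chr9:32384393-32384692 on the plus strand for ACO1, chr2:84459231-84459530 on the minus strand for SUCLG1, chr1:241519706-241520005 on the minus strand for FH and chr15:78149112-78149411 on the plus strand for IDH3A.
ACO1: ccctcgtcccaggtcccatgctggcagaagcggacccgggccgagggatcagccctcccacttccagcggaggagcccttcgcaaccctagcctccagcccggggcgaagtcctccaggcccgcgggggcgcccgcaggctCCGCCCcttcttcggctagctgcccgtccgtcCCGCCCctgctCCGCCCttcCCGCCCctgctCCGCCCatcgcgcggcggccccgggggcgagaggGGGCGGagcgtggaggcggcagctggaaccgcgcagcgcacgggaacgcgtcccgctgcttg
SUCLG1: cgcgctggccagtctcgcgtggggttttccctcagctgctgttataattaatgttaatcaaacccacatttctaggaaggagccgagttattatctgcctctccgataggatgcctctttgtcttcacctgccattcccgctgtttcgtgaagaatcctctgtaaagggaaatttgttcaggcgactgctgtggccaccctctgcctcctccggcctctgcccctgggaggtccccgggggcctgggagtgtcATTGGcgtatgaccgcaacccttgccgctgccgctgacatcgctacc
FH: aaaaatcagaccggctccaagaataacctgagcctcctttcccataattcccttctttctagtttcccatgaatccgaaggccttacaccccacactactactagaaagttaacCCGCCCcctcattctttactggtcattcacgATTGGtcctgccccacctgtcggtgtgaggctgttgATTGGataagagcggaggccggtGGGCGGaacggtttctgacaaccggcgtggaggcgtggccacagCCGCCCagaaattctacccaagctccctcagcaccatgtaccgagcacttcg
IDH3A: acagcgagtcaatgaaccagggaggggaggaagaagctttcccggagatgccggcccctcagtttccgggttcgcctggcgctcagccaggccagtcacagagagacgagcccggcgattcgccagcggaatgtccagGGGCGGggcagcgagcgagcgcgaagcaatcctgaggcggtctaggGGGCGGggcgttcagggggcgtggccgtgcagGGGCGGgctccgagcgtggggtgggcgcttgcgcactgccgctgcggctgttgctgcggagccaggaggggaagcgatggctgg

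The 4 windows differed widely in composition. GC content was 76.3% in ACO1, 56.3% in SUCLG1, 54.0% in FH and 70.0% in IDH3A, against a median of 58.7% over 35116 windows. CpG pairs numbered 36, 16, 15 and 30 in the same order, against a median of 14. GGGCGG occurred 6 times in ACO1, 3 times in FH, 3 times in IDH3A and 0 times in SUCLG1, and 45.0% of all windows hold it. CCAAT occurred 2 times in FH and once in SUCLG1, and 34.6% of all windows hold it. Of these 4, the windows richest in GC belong to ACO1, called lower in MDA Pca 2b, and to IDH3A, which had the highest ratio of the 9 genes. CS, with a 67.3% GC window, had GGGCGG 5 times and CCAAT 2 times. MDH2, at 66.7% GC, had 0 of either and CCGGAAG, a core bound by ETS family factors such as GABPA, 2 times, where 10.3% of windows hold that core on either strand. The palindrome bound by NRF1, searched on both strands, was in none of these 6 windows nor in that at the IDH1 gene start, and 1.24% of windows hold it. The window listed for IDH2 lies at an internal start and is not described, and OGDH is named only.

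A further 11 genes for cycle enzyme subunits were looked up, and all were measured. Of these, 3 were called lower in MDA Pca 2b (OGDHL, SUCLG2 and SDHC) and 0 higher, or 27.3% lower against 13.2% of all measured genes, with a median log2 ratio of −0.53. Together with the 9 genes above, 20 in all, 8 were called lower, 0 were called higher and 17 had a log2 ratio below 0. The 8 are 40% of these genes. Over all measured genes, 13.2% were called lower, 10.9% were called higher and 50.1% had a log2 ratio below 0. With an assumed spread between cultures of 20%, 2 of the 11 and 1 of the 9 were still called lower, against 6.69% of all genes.

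**Figure D3:**
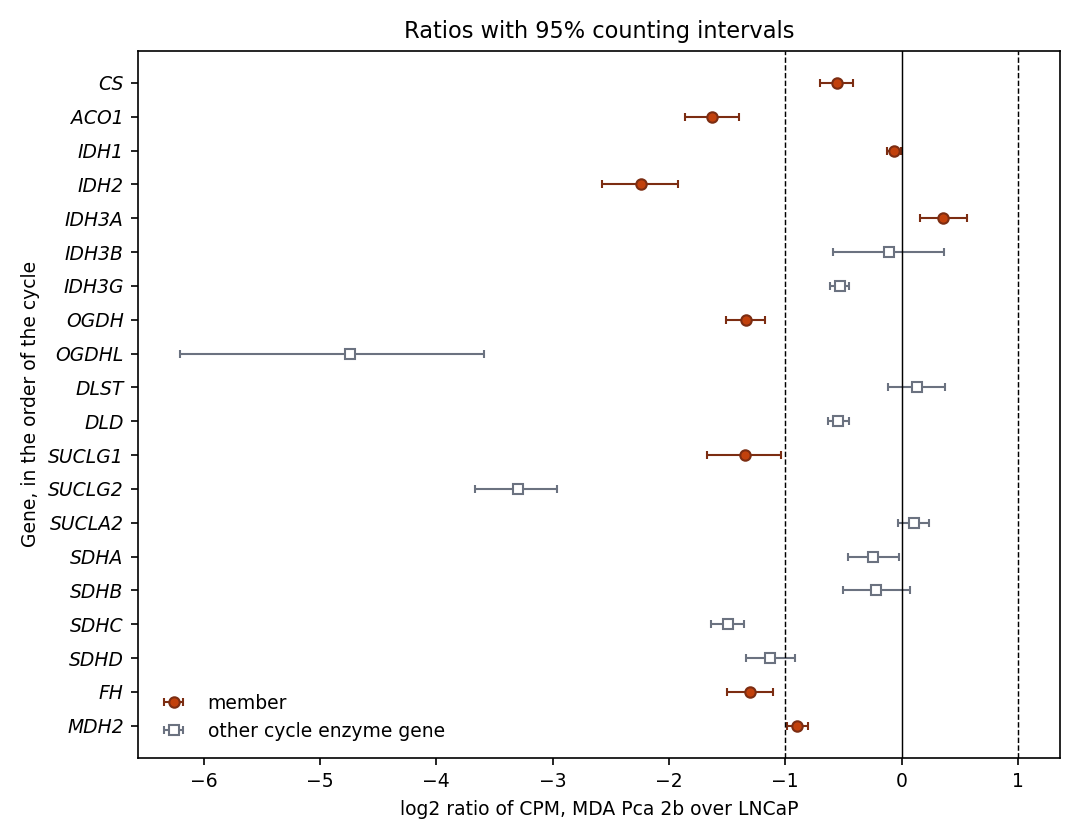
Log2 ratio of MDA Pca 2b over LNCaP (x axis) for the 9 described genes (filled circles) and the 11 other cycle subunit genes (open squares), in the order of the cycle from top to bottom. Bars are exact 95% counting intervals, the solid line is no difference and the dashed lines are 2-fold. OGDHL and SUCLG2 lie furthest to the left, and the subunits of the oxoglutarate dehydrogenase, succinyl-CoA ligase and NAD-dependent isocitrate dehydrogenase complexes are spread along the axis.

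Subunits of 1 complex differed unequally. The subunit pairs with IDH3G, DLST, DLD, and SUCLG1 with SUCLA2, were chosen after their values were seen. In the NAD-dependent isocitrate dehydrogenase, the regulatory subunit genes IDH3B and IDH3G had 67 and 1851 counts in MDA Pca 2b, against 92 and 3407 in LNCaP. The ratio of IDH3A to IDH3G was 0.214 in MDA Pca 2b and 0.115 in LNCaP, 1.85-fold higher in MDA Pca 2b (1.59 to 2.16). That of IDH3A to IDH3B was 5.91 in MDA Pca 2b, against 4.27 in LNCaP, and with an interval of 0.967 to 1.99 on the 1.38-fold difference that included 1. IDH3A thus stood higher relative to 1 of its partners, and relative to the other the interval left both directions.

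In the oxoglutarate dehydrogenase complex, DLST, the succinyltransferase core, had 30.7 CPM in MDA Pca 2b and 28.0 CPM in LNCaP, a 1.09-fold difference (0.923 to 1.29). DLD, the dihydrolipoamide dehydrogenase shared with other complexes, had 187.8 and 273.4 CPM, 1.46-fold apart (1.37 to 1.55). Relative to DLST, OGDH was 2.77-fold lower in MDA Pca 2b (2.25 to 3.40), with count ratios of 1.54 in MDA Pca 2b and 4.25 in LNCaP. Relative to DLD it was 1.74-fold lower (1.53 to 1.98). OGDHL, the oxoglutarate dehydrogenase paralog known from brain, had 6 counts in MDA Pca 2b and 204 in LNCaP, a 26.7-fold lower level (12.1 to 73.6). Both genes for the first component were therefore lower in MDA Pca 2b, and neither of the other components was called.

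The succinyl-CoA ligases pair SUCLG1 with SUCLA2 to make ATP or with SUCLG2 to make GTP. SUCLG2 had 74 counts in MDA Pca 2b and 929 in LNCaP, or 8.69 and 85.7 CPM, 9.86-fold lower in MDA Pca 2b (7.77 to 12.7). SUCLA2 had 828 counts in MDA Pca 2b and 981 in LNCaP, or 97.3 and 90.5 CPM, a 1.07-fold difference (0.979 to 1.18). The count ratio of SUCLG2 to SUCLA2 was 0.0894 in MDA Pca 2b and 0.947 in LNCaP, 10.6-fold lower in MDA Pca 2b (8.19 to 13.8). The shared subunit SUCLG1 was 2.73-fold lower relative to SUCLA2 (2.15 to 3.49). The GTP-forming partner thus differed between the 2 libraries, and the difference in the ATP-forming partner lay within counting error.

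Of 2 isozyme pairs in different compartments, 1 differed between the libraries. The count ratio of IDH1 to IDH2 was 43.5 in MDA Pca 2b and 9.64 in LNCaP, 4.52-fold higher in MDA Pca 2b (3.61 to 5.71). For malate dehydrogenase, MDH1, the cytosolic enzyme of the malate-aspartate shuttle, had 157.3 CPM in MDA Pca 2b and 285.2 CPM in LNCaP, 1.81-fold apart (1.70 to 1.93). Its ratio to MDH2 was nearly the same in both libraries, with MDH2 to MDH1 at 1.10 in MDA Pca 2b and 1.12 in LNCaP and an interval of 0.891 to 1.07 on the quotient. Among the succinate dehydrogenase genes, SDHA and SDHB had 34.7 and 20.1 CPM in MDA Pca 2b, against 41.0 and 23.3 CPM in LNCaP. The membrane anchor SDHC had 59.7 CPM in MDA Pca 2b and 168.1 CPM in LNCaP, 2.82-fold lower in MDA Pca 2b, and SDHD, the other anchor, 30.1 and 65.7 CPM, a 2.18-fold difference (1.89 to 2.53) that was not called. The SDHA value is uncertain because near-identical copies could share its reads, and their rows SDHAP1, SDHAP2 and SDHAP3 held 24, 937 and 2 counts in MDA Pca 2b, against 33, 588 and 16 in LNCaP.

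Around the cycle, 92 genes on 9 pathway lists, the 11 other subunit genes included, were looked up, 91 were found and 84 were measured. Of these, 15 were called lower in MDA Pca 2b and 4 higher, with a median log2 ratio of −0.52. That is 17.9% lower and 4.76% higher, against 13.2% and 10.9% of all measured genes. The lists below are small, and their counts are to be read against the same shares. In the list of pyruvate entry and pyruvate dehydrogenase, 2 of 12 measured genes were lower (MPC1 and DLAT) and 2 were higher (PDK1 and PDK4), with a median log2 ratio of −0.69. Each count is 16.7% of the list, near the 13.2% lower and 10.9% higher of all genes. MPC1, a subunit of the mitochondrial pyruvate carrier, was 2.48-fold lower (2.24 to 2.76). DLAT, the acetyltransferase of pyruvate dehydrogenase, was 4.69-fold lower (3.96 to 5.58). PDK1 and PDK4, kinases that switch pyruvate dehydrogenase off, had 178 and 25 counts in MDA Pca 2b, against 48 and 2 in LNCaP. They were 4.72-fold (3.42 to 6.64) and 15.9-fold (3.97 to 138.7) higher. The other 8 genes of the list, the kinases PDK2 and PDK3 among them, were not called.

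Of 18 measured genes for refilling reactions and shuttles, 4 were lower in MDA Pca 2b and 0 higher, or 22.2% lower against 13.2% of all genes, with a median log2 ratio of −0.47. ME1, the cytosolic malic enzyme, was at 0 in MDA Pca 2b and had 3728 counts in LNCaP, at least 976-fold lower against a floor of 3 counts per library, which is the one-sided 95% limit of a count of 0. MUT (methylmalonyl-CoA mutase) and PCCB (propionyl-CoA carboxylase), which feed succinyl-CoA into the cycle from odd-chain fatty acids and some amino acids, were 9.74-fold (7.71 to 12.5) and 3.15-fold (2.62 to 3.796) lower. SLC25A10, the dicarboxylate carrier, was 3.24-fold lower (2.68 to 3.94). PC (pyruvate carboxylase), ME3 and the citrate importer gene SLC13A5 were at 0 in both libraries, which by the same floor of 3 counts allows up to 0.352 CPM in MDA Pca 2b and 0.277 CPM in LNCaP. These 3 are named because of that value.

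Downstream of citrate, 1 of 5 measured genes was lower and 0 were higher, with a median log2 ratio of −0.72. ACACA, the acetyl-CoA carboxylase of fatty acid synthesis, was 2.41-fold lower (2.26 to 2.57). SLC25A1, the mitochondrial citrate carrier, had 54.0 CPM in MDA Pca 2b and 82.8 CPM in LNCaP, and ACLY, the citrate-cleaving lyase, 216 and 357 CPM, neither called. Among 7 genes of iron regulation, 2 were lower and 0 higher, with a median of −0.74. IREB2, the other iron regulatory protein beside ACO1, was 3.34-fold lower (3.05 to 3.66), at 69.8 CPM in MDA Pca 2b and 233 CPM in LNCaP. SLC11A2, an iron importer, was 4.15-fold lower (3.47 to 5.005). Both genes for iron regulatory proteins were thus called lower on counting error alone. With an assumed spread between cultures of 20%, ACO1 was not called. At that spread, 1 of the 7 iron regulation genes was still called lower, against 6.69% of all measured genes.

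Cofactor assembly had 1 of 12 measured genes lower, ACN9 (now SDHAF3, an assembly factor of succinate dehydrogenase), at 3.38-fold (2.96 to 3.88), and a median log2 ratio of −0.66. The 2-hydroxyglutarate and NADPH list had 1 of 7 higher and 0 lower, with a median of −0.31. NNT, the transhydrogenase that makes NADPH in the matrix, had 117 counts in MDA Pca 2b and 2 in LNCaP, 74.5-fold higher (20.2 to 622), while IDH2, a matrix NADPH source too, was lower. Among 8 measured regulators of mitochondrial genes, TFAM, the packaging and transcription factor of mitochondrial DNA, was 2.68-fold lower (2.32 to 3.11) and PPARGC1B, a coactivator, 4.11-fold higher (2.96 to 5.81), and the list median was −0.48. SIRT3, the main deacetylase of the matrix, was 3.28-fold lower (2.23 to 4.96), the 1 called gene of 4 measured in the list of matrix sirtuins and proteases, whose median was −0.34.

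**Figure D4:**
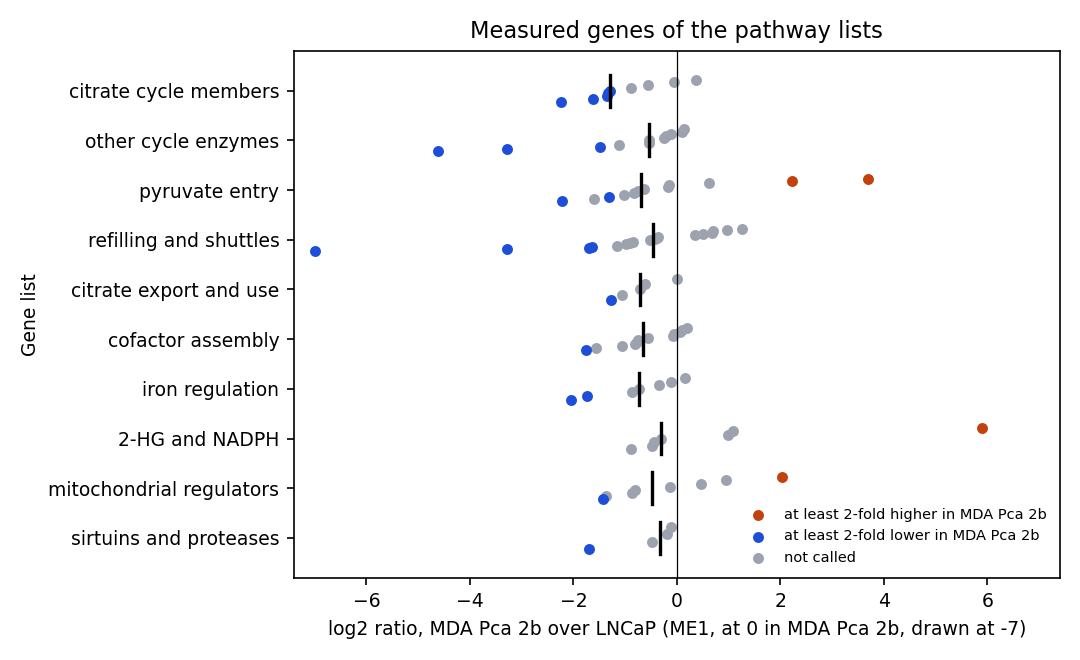
Log2 ratio of MDA Pca 2b over LNCaP (x axis) of every measured gene in the 9 described genes (top row) and in the 9 pathway lists, with orange for genes called higher in MDA Pca 2b, blue for genes called lower, grey for not called and a black bar for each median. The medians run from −1.30 in the top row to −0.31 in the list of 2-hydroxyglutarate and NADPH genes, and ME1, at 0 in MDA Pca 2b, is drawn at the left edge.

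Genomic neighbours gave the last comparison. For each gene the 10 nearest measured genes on either side were taken from the GRCh38.p14 gene order. IDH2 and IDH3A both lie on chromosome 15, where the median log2 ratio of 402 measured genes was −0.13. The 20 neighbours of IDH2 had a median of 0.23, and 2 of them had a lower ratio than IDH2. The 20 neighbours of IDH3A had a median of −0.36, with 16 below it. On chromosome 7, the neighbours of OGDH and MDH2 had medians of 0.37 and −0.22, and on chromosome 2 those of SUCLG1 and IDH1 had medians of 0.04 and −0.51. The neighbours of OGDH include the small nucleolar RNAs SNORA5A, SNORA5B and SNORA5C, with log2 ratios of 2.10, 1.04 and 2.34. Those of MDH2 include SNORA14A, at 2.21. The part of these RNAs in the medians was not tested. Around ACO1 on chromosome 9 the median was −0.76, with 2 of 20 neighbours called lower and 0 higher. Around FH on chromosome 1 it was −0.34, with 6 called lower and 3 higher. Lower and higher calls numbered 2 and 5 around IDH2, 2 and 4 around OGDH, and 2 and 2 around SUCLG1. They numbered 5 and 2 around IDH1, 4 and 2 around IDH3A, 1 and 2 around MDH2, and 2 and 0 around CS. Over all measured genes, 13.2% were called lower and 10.9% higher. CS, on chromosome 12, had neighbours with a median of −0.04. Of the 5 called genes, IDH2 and OGDH thus sat among neighbours with medians above 0, ACO1 and FH among neighbours with medians below 0, and the median around SUCLG1 lay near 0, below the chromosome 2 median of 0.17.

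**Figure D5:**
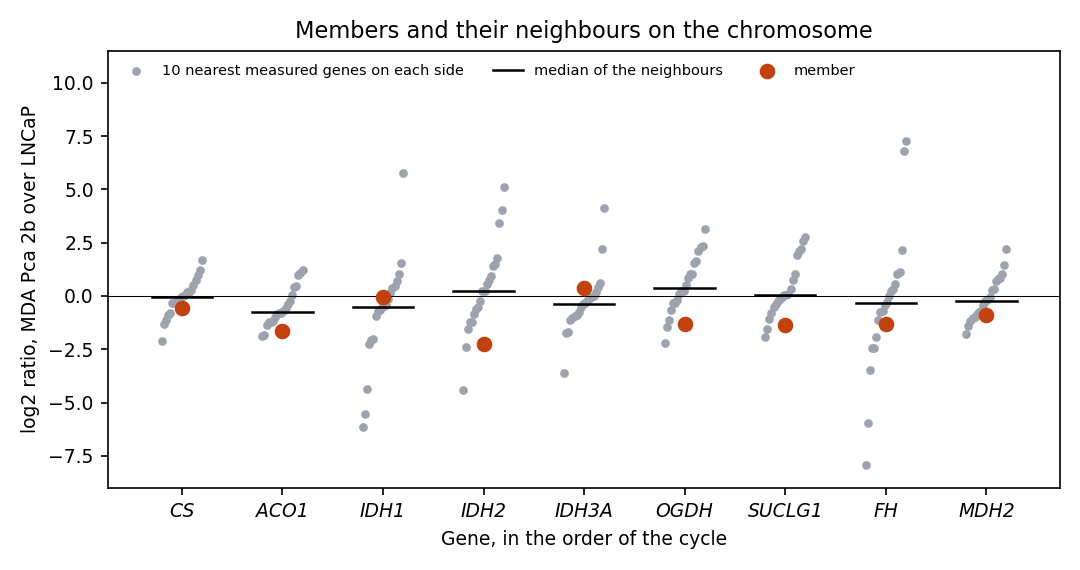
Log2 ratio of MDA Pca 2b over LNCaP (y axis) for each citrate cycle gene (orange) and its 10 nearest measured genes on each side (grey), with a black bar for the neighbours' median. Each of IDH2, OGDH, SUCLG1 and ACO1 lies above 2 of its 20 neighbours, and FH lies above 6.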

How the data were processed

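Total RNA of 2 cell lines, 1 library each, was sequenced as AmpliSeq Transcriptome libraries, per the labels' protocols. The authors deposited 1 table of raw counts, whole numbers for each amplicon. hg19 and DESeq appear in the submitters' processing notes without a stated role. Which aligner, counter and filters were used is not given in those notes or labels. After removing 10 spike-in rows, 20802 amplicons remained, of which 28 had symbols turned into dates and were kept under their amplicon names. Counts were scaled to library total times edgeR 4.0.16 TMM factor (0.994 for MDA Pca 2b, 1.01 for LNCaP).

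A gene was measured with at least 10 counts in 1 library. Ratios, MDA Pca 2b over LNCaP, have exact Clopper-Pearson 95% intervals conditional on the summed count, and pair ratios have exact conditional odds ratio intervals (scipy 1.17.1). Log2 ratios used 0.5 added counts. With 1 library per line no p-value was computed. The labels mention no molecular identifiers, and PCR copies are not separate molecules, so these intervals hold counting error alone. Intervals with an assumed spread were widened on the log scale by a normal approximation and are not exact. Genes were named as all 9 members, the 11 further cycle subunits, all called genes of the pathway lists, MDH1, ACLY, SLC25A1 and IREB2, and the marker of each list with most counts. Genes named beyond this rule include the called markers KLK2 and CSF1R. They also include PTPRC, CDH5, PC, ME3 and SLC13A5, named because they had no counts in either library. The members and lists were chosen with earlier results of these data known. The steps were tested on simulated counts with counting error alone, which cannot show how a spread between cultures would act. Alternatives were other scalings (DESeq2 1.42.0 size factors, the upper quartile, totals with and without small nucleolar RNAs), thinning, thresholds, filters, pseudocounts and assumed spreads. Chromosomes and gene order came from the GRCh38.p14 gene table. PDP1 was not analysed here, and 1 planned pair ratio is not reported here. Amplicon positions were not used here, so a sequence difference under a primer cannot be told from a level.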

Additional observations from a re-analysis of the deposited data

How the results depend on the processing

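With library size set by DESeq2, by the upper quartile or by totals with and without small nucleolar RNAs, and after thinning LNCaP to the MDA Pca 2b total, 4 or 5 of the 9 genes were called lower in MDA Pca 2b and 0 higher, and their median log2 ratio ran from −1.34 to −1.21. Over all measured genes, the same settings called 11.9% to 14.2% lower and 10.4% to 12.2% higher. SUCLG1 was the gene lost, under upper quartile scaling (ratio 0.418) and without small nucleolar RNAs (0.407), which move every ratio by the same factor. Filters of 0 or 50 counts left the 5 calls, and 1 added count gave a median of −1.30. At a 1.5-fold threshold 6 of the 9 were called lower, against 22.5% of all genes, and at 3-fold 1 was, against 6.21%. At an assumed spread of 20% and 40% between cultures, 1 and 0 of the 9 were called lower, against 6.69% and 3.41% of all genes. At 1.5-fold, 35 of the 84 measured pathway list genes were called lower and 7 higher, against 22.5% and 19.3% of all genes. At 3-fold, 7 of the 84 were lower and 3 higher, against 6.21% and 5.90% of all genes. At a spread of 20%, 6 of the 84 were lower and 4 higher, against 6.69% and 6.28% of all genes. At 40%, 4 of the 84 were lower and 2 higher, against 3.41% and 3.72%. These thresholds and spreads move the calls by construction. No paired analysis was possible because each line had 1 library, and for the same reason no library could be left out. Among the 9 genes, counting error limits SUCLG1 and IDH2 most, at 108 and 93 counts in MDA Pca 2b, and it is wider for pathway genes with few counts such as PDK4, NNT and OGDHL.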
